A study of Mus musculus with 24 samples.

Results

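Open chromatin after a single dose of lipopolysaccharide (LPS) was compared between macrophages of the BTBR mouse strain and of C57BL6/J. The libraries were chosen by their labels for strain and for a single LPS dose, which gave 8 of the 24 libraries in the series, 4 of each strain. BTBR (BTBR T+ Itpr3tf/J) animals 2, 3, 5 and 8 were set against C57BL6/J animals 1, 4, 6 and 7. All were males at postnatal day 28. Marrow was cultured for 7 days into bone marrow derived macrophages, and these cultures received medium alone first and then LPS at 100 ng/ml for 24 hours (LPSx1). The other libraries came from the same animals after medium alone (media) or after LPS for 4 hours, a rest of 20 hours and LPS again for 24 hours (LPSx2). Animals 2 and 1 were sequenced in lane 1, 3 and 4 in lane 2, 5 and 6 in lane 3, and 8 and 7 in lane 4, so each lane held a library of each strain.

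Macrophages sense LPS, found on the surface of Gram-negative bacteria, through the receptor Tlr4. The signal activates NF-kB and AP-1 factors and induces interferons, in cells whose open regions are set up by lineage factors such as PU.1 and C/EBP. BTBR mice are inbred and serve as a model in autism research, with immune traits that differ from those of C57BL6/J. ATAC-seq marks open DNA by the places where the Tn5 transposase can insert adapters. Because the lists were limited to an equal length, a count of peaks at a gene is its part of the strongest peaks in a library and not its total accessibility.

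The LPSx1 lists held 112429, 50091, 17519 and 13957 peaks in BTBR animals 2, 3, 5 and 8, against 30799, 30945, 25333 and 33981 in C57BL6/J animals 1, 4, 6 and 7, after overlapping peaks of a list were merged. BTBR had both the longest and the shortest list, and the log2 length differed by 0.19 (two-sided exact permutation p = 0.829, n = 4 each). Read numbers are not known, so depth is seen only through list length. The top 13957 peaks by score of each list were used. In the list of C57BL6/J animal 1, 85.3% of deposited peaks overlapped another, against at most 0.0998% in the other 7. Additional PCR cycles were 6 to 8 in lanes 1 and 2 and 10 to 12 in lanes 3 and 4. All 12 macrophage identity genes were among those tested, with summed peaks of 10 to 39 in BTBR and 14 to 35 in C57BL6/J. All 6 B cell markers were at 0, and T and NK cell markers summed to 1 to 2 peaks in BTBR and 0 to 1 in C57BL6/J. Neutrophil markers summed to 1 to 2 in BTBR and 0 to 2 in C57BL6/J, stromal markers to 1 to 3 in each strain, dendritic cell markers to 3 to 6 in BTBR and 3 to 4 in C57BL6/J, and erythroid markers to 0 to 1 in BTBR and 0 in C57BL6/J.

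A BTBR and a C57BL6/J list shared 64.7% of their peaks on average, and a small part of the regions was present in every list of a strain and in no list of the other. The union of the 8 lists held 28499 regions, of which 4721 were in all 8. In 114 regions (0.400%) a peak lay in 4 of 4 BTBR lists and 0 of 4 C57BL6/J lists. In 222 regions (0.779%) a peak lay in 0 of 4 BTBR lists and 4 of 4 C57BL6/J lists. No test was made of these counts. Both sets lay mainly away from promoters. Within 1 kb of a transcription start site (TSS) were 20 of the 114 BTBR-only regions (17.5%) and 27 of the 222 C57BL6/J-only regions (12.2%), while the share was 36.2% of all regions and 61.9% of those in all 8 lists. Of the BTBR-only regions 57 were intronic, 11 exonic and 46 intergenic, and of the C57BL6/J-only regions 119, 9 and 94. Absence from a list of fixed length is not absence of signal: in the lists of full length, 34 of the 114 BTBR-only regions had no peak in any C57BL6/J list, and 26 of the 222 C57BL6/J-only regions had none in any BTBR list. Reads of both strains were aligned to a C57BL6/J genome. Whether BTBR reads were lost where the sequence differs was not tested, for these regions or for genes without a BTBR peak.

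The sequences below are the best peak windows of 3 regions from each set, shown because they rank highest among those not mostly repeat-masked. Letters are those of the GRCm38.p6 (mm10) plus strand, which is a C57BL/6J genome, and the BTBR letters at these places are not known here. Capitals mark matches on either strand to any of 12 motifs, among them TGANTCA for AP-1, TGTGGT for RUNX, GAGGAAGT for PU.1 and GGGCGG for SP/KLF.
BTBR-only region nearest Ccnh, chr13:85127282-85127482: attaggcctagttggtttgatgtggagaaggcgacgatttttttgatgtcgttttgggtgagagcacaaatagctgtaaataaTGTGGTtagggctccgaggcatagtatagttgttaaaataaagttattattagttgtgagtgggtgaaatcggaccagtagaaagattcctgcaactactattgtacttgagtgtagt
BTBR-only region nearest Gad2, chr2:22587734-22587934: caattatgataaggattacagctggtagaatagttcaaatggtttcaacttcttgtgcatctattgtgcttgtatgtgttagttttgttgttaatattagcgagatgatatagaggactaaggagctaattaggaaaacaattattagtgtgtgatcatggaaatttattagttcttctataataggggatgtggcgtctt
BTBR-only region nearest Gm20075, chr13:96011276-96011476: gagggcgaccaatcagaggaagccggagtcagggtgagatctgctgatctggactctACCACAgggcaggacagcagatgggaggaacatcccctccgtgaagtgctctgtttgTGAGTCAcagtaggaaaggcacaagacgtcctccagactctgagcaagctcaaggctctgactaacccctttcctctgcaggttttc
C57BL6/J-only region nearest Dip2c, chr13:9191280-9191480: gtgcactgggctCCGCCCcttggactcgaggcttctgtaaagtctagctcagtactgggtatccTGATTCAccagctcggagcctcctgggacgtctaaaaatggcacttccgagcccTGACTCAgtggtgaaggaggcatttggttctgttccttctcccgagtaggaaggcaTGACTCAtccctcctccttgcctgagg
C57BL6/J-only region nearest Spef2, chr15:9864842-9865042: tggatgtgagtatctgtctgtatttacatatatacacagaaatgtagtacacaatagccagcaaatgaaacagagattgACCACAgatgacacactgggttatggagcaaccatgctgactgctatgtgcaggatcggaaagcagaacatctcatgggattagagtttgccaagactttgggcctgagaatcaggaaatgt
C57BL6/J-only region nearest Nlrp1b, chr11:71251437-71251637: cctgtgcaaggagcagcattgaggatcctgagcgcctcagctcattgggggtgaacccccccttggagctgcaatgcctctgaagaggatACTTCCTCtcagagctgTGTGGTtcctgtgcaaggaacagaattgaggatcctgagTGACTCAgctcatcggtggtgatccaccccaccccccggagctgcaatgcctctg
The Gm20075 window holds an AP-1 and a RUNX match, the Dip2c window AP-1 and SP/KLF matches, and the Nlrp1b window AP-1, PU.1 and RUNX matches. The Ccnh and Spef2 windows hold a RUNX match, and the Gad2 window holds none of the motifs.

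The top-ranked BTBR-only regions include nuclear sequence that resembles the mitochondrial genome and fully repeat-masked sequence. Of the stretches of 20 bases in the Gad2 window, 89.0% also occur exactly in the mouse mitochondrial genome, and 42.3% of those in the Ccnh window do. These were 2 of the 114 BTBR-only regions (1.75%), against 0 of the 222 C57BL6/J-only regions, with 0.126% over all 28499 regions. Such matches were also in 18 of the 4721 regions found in all 8 lists (0.381%). The Ccnh region is exonic in Gm4076 on chromosome 13, and the Gad2 region lies in an intron of Myo3a on chromosome 2. In BTBR animals 2, 3, 5 and 8 the Ccnh region ranked at the 99.9 percentile of each list by score. Regions nearest Gm10717 and Gm11168 near the start of chromosome 9 ranked 3 and 5 and were 100% repeat-masked. The part of mitochondrial or repeat reads in these calls was not tested. The region in an intron of Sv2c nearest Gm20075, chr13:96011276-96011491, had no such match, with ranks of 95.6, 98.8, 97.1 and 95.2 in BTBR animals 2, 3, 5 and 8. The next was intergenic, nearest the sialyltransferase gene St6galnac5, with ranks between 87.6 and 91.7.

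The strongest C57BL6/J-only region was intergenic, chr13:9191280-9191538, at 85119 bp from the TSS of Dip2c. Its percentile ranks were 97.7, 96.5, 97.0 and 97.8 in C57BL6/J animals 1, 4, 6 and 7. The region nearest Spef2, chr15:9864808-9865042, followed with ranks of 94.1, 88.9, 94.2 and 91.8. Further regions lay on the Y chromosome, in an intron of Pdlim5 nearest Bmpr1b, and in a fully repeat-masked stretch nearest Pon2. The region ranked 4, chr11:71251391-71251682, lies in an intron of the pseudogene Nlrp1c-ps, 20803 bp from the TSS of Nlrp1b. It had no peak in any BTBR list of full length.

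The strain-specific regions of LPSx1 were also uneven between the strains in the other treatments, which the choice of regions did not use, although the animals are the same. In media, 54.4% to 64.9% of the BTBR-only regions had a peak in the 4 BTBR lists, against 18.4% to 28.1% in the 3 C57BL6/J lists kept. With LPSx2 the values were 64.0% to 78.9% in BTBR and 10.5% to 14.0% in C57BL6/J. Of the C57BL6/J-only regions, 9.46% to 22.5% had a peak in the BTBR media lists, against 32.0% to 49.1% in C57BL6/J. With LPSx2 this was 11.3% to 21.6% in BTBR and 78.4% to 84.7% in C57BL6/J. The strains did not overlap in any of these 4 comparisons. Regions absent from every media list of their own strain numbered 26 of 114 for BTBR and 103 of 222 for C57BL6/J, and those absent from every LPSx2 list of their own strain 2 and 5. The media and LPSx2 lists of C57BL6/J animal 6 held 299 and 1879 peaks and were left out, and the media list of animal 1 held 11349.

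**Figure D1:**
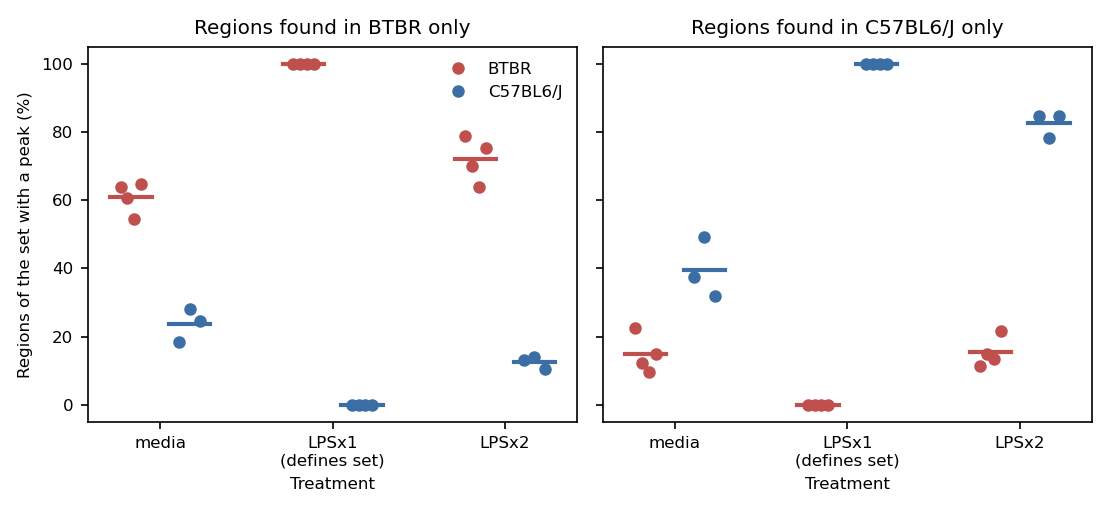
Share of the 114 BTBR-only (left) and 222 C57BL6/J-only (right) regions with a peak in each library, by treatment, for BTBR (red) and C57BL6/J (blue). Each point is a library and each bar a mean; LPSx1 is 100% or 0% because it defines the sets, and in media and LPSx2 the strains stay apart.

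Peak numbers per gene gave 8 genes that passed in the fit used for genes below, 2 higher in BTBR (0.0234% of 8551 tested) and 6 lower (0.0702%). That fit was limma on peaks per gene with strain alone, in which genes without any spread between libraries received the spread learned from the other genes. It was added after the planned fit had been examined. The planned limma fit with lane as covariate called 118 of 8551 genes (1.38%), 52 higher and 66 lower in BTBR, but 116 of these had no residual spread at all, as with 1 peak in every BTBR list and 0 in every C57BL6/J list. Of the 8 genes, 3 were among its 118. In the strain-only fit, unadjusted p was under 0.05 for 524 genes (6.13%), 215 higher and 309 lower in BTBR. The number called depended on the covariate: with lane added, as the design has it, the same shared-spread fit called 175 genes (2.05%). In that fit with lane the median total degrees of freedom was 25653, against 16.9 with strain alone, so that the shared value outweighed a gene's own spread for most genes. The fit of all kept libraries called 45 of 7379 genes (0.610%). It had groups of strain by treatment and lane, but no term for the animal. Libraries of the same animal thus counted as separate in its spread, and its strain contrast used the same LPSx1 libraries. How the 8 genes fared in the other fits is given after all 8 have been described. For other genes not every fit is given. In 176 genes (2.06%) the 4 BTBR and 4 C57BL6/J values did not overlap.

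Pla2g4a, the cytosolic phospholipase that releases arachidonic acid for prostaglandins and leukotrienes (chromosome 1, 149829618 to 149961290), had the difference that held under every omission of a library. It had 2, 2, 2 and 1 peaks in BTBR animals 2, 3, 5 and 8, against 8, 7, 8 and 6 in C57BL6/J animals 1, 4, 6 and 7. All BTBR values lay below all C57BL6/J values. It fell by 5.50 ± 0.79 peaks (SE, limma adjusted p = 0.0151), with adjusted p of 0.0103 to 0.0460 when a library was left out. Over 20 alternative settings the difference kept its direction but ran from -5.92 to -0.75 peaks. With lists not cut it did not pass. In media Pla2g4a had 5, 4, 2 and 2 peaks in BTBR and 2, 5 and 4 in C57BL6/J, which overlap. With LPSx2 it had 3, 1, 1 and 2 in BTBR and 8, 8 and 6 in C57BL6/J. A strain difference in the change from media to LPSx1 did not pass (interaction -4.58 peaks, shared-spread limma adjusted p = 0.179). With the animal as a replicate block the limma adjusted p was 0.146, and in the planned limma fit 0.210. Of the C57BL6/J-only regions of Pla2g4a, an intronic one is chr1:149911153-149911396. It had a peak in 4 of 4 BTBR and 2 of 3 C57BL6/J media lists. For LPSx2 this was 2 of 4 and 3 of 3. Another, chr1:149962899-149963206, lies 1762 bp from the TSS and had no peak in any media list of either strain. In LPSx1 lists of full length each of these regions had a peak in 2 of 4 BTBR lists.

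Inpp4b, a phosphoinositide phosphatase that limits AKT signalling (chromosome 8, 81342556 to 82127914), had 0, 0, 3 and 3 peaks in BTBR, against 7, 10, 6 and 7 in C57BL6/J. It fell by 6.00 ± 1.03 (SE, limma adjusted p = 0.0245). These BTBR values split by lane pair. Media lists held 2, 1, 2 and 2 peaks at Inpp4b in BTBR and 4, 4 and 1 in C57BL6/J, which overlap. The call was lost without BTBR animal 2 or 3 or C57BL6/J animal 1 or 7, with adjusted p up to 0.0994. Its 2 C57BL6/J-only regions, chr8:81756730-81756966 and chr8:81751248-81751469, are intronic, and with LPSx2 each was in 0 BTBR and 3 of 3 C57BL6/J lists. In BTBR LPSx1 lists of full length the first had a peak in 2 of 4 and the second in 0.

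Nlrp1b, an inflammasome sensor that anthrax lethal factor activates and whose sequence differs among inbred mouse strains (chromosome 11, 71153102 to 71230733), had 0 peaks in every BTBR list, against 2 in every C57BL6/J list. It fell by 2.00 ± 0.34 (SE, limma adjusted p = 0.0245). In media it had 0 in all 4 BTBR lists and 3, 3 and 2 in C57BL6/J, and with LPSx2 0 in all 4 BTBR lists and 2, 2 and 2 in C57BL6/J. A region of it, chr11:71230747-71230976, lies 128 bp from the TSS and had no peak in any BTBR list of full length. Whether BTBR reads from this locus were lost in alignment to the C57BL6/J genome was not tested. Nlrp1b did not pass when any library was left out (adjusted p 0.0623 to 0.0994). It passed in the fit of all 22 kept libraries (limma adjusted p = 9.31e-05).

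Trim52, of the tripartite motif family, had 0, 0, 1 and 2 peaks in BTBR, against 5, 5, 5 and 4 in C57BL6/J. It fell by 4.00 ± 0.61 (SE, limma adjusted p = 0.0151), and the call was lost without BTBR animal 3 (adjusted p = 0.0828). Media lists held 0, 0, 1 and 1 in BTBR and 2, 3 and 1 in C57BL6/J, which overlap. Rpl14, a protein of the large ribosomal subunit, had 0, 0, 0 and 1 in BTBR and 3, 3, 4 and 3 in C57BL6/J. It fell by 3.00 ± 0.45 (limma adjusted p = 0.0151), and the call was lost without BTBR animal 3 or 5 (adjusted p up to 0.0828). Its C57BL6/J-only region chr9:120571305-120571566 has its centre 9 bp from the TSS, and had a peak in 1 BTBR list of full length. Rpl14 had 0, 0, 1 and 1 in the BTBR media lists and 2, 2 and 2 in C57BL6/J, apart without LPS too. Gm13283 had 0 in all BTBR lists and 1, 3, 3 and 3 in C57BL6/J. It fell by 2.50 ± 0.45 (limma adjusted p = 0.0386) and passed in 1 of 8 fits with a library left out, the one without C57BL6/J animal 1 (adjusted p up to 0.113 in the others). Media lists held 0 in all BTBR animals and 0, 2 and 2 in C57BL6/J.

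Plxnd1, a semaphorin receptor (chromosome 6, 115954811 to 115995005), had 4, 4, 2 and 2 peaks in BTBR, against 0 in every C57BL6/J list. It was higher by 3.00 ± 0.50 (SE, limma adjusted p = 0.0245). In media it had 2, 3, 2 and 1 in BTBR and 1, 1 and 1 in C57BL6/J, and with LPSx2 4, 6, 2 and 1 in BTBR and 0 in the 3 C57BL6/J lists. The call was lost without BTBR animal 3 or C57BL6/J animal 1, 4 or 7 (adjusted p up to 0.0828). Gpr139, an orphan receptor known mainly from brain, had 2 in every BTBR list, against 0 in every C57BL6/J list. It was higher by 2.00 ± 0.34 (limma adjusted p = 0.0245) and was not called when any library was left out (adjusted p 0.0576 to 0.0994). Its 2 BTBR-only regions, chr7:119116492-119116767 and chr7:119110813-119111104, had no peak in any C57BL6/J list of full length. Gpr139 had 3, 1, 1 and 2 in the BTBR media lists and 0 in every C57BL6/J media list kept, apart without LPS too.

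All 8 genes were among the 175 of the fit with lane, and 7 of the 8 passed in the fit of all kept libraries. The exception was Gpr139 (limma adjusted p = 0.0537). In the planned limma fit Pla2g4a, Nlrp1b and Gpr139 passed, and Nlrp1b and Gpr139 had no residual spread there. Inpp4b (limma adjusted p = 0.589), Trim52, Gm13283 and Plxnd1 (0.383 each) and Rpl14 (0.242) did not pass in the planned fit. All these fits rest on the same LPSx1 libraries, so none is an independent test. In each of the 4 lanes the 8 genes had the same direction, which follows from strain values that do not overlap.

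**Figure D2:**
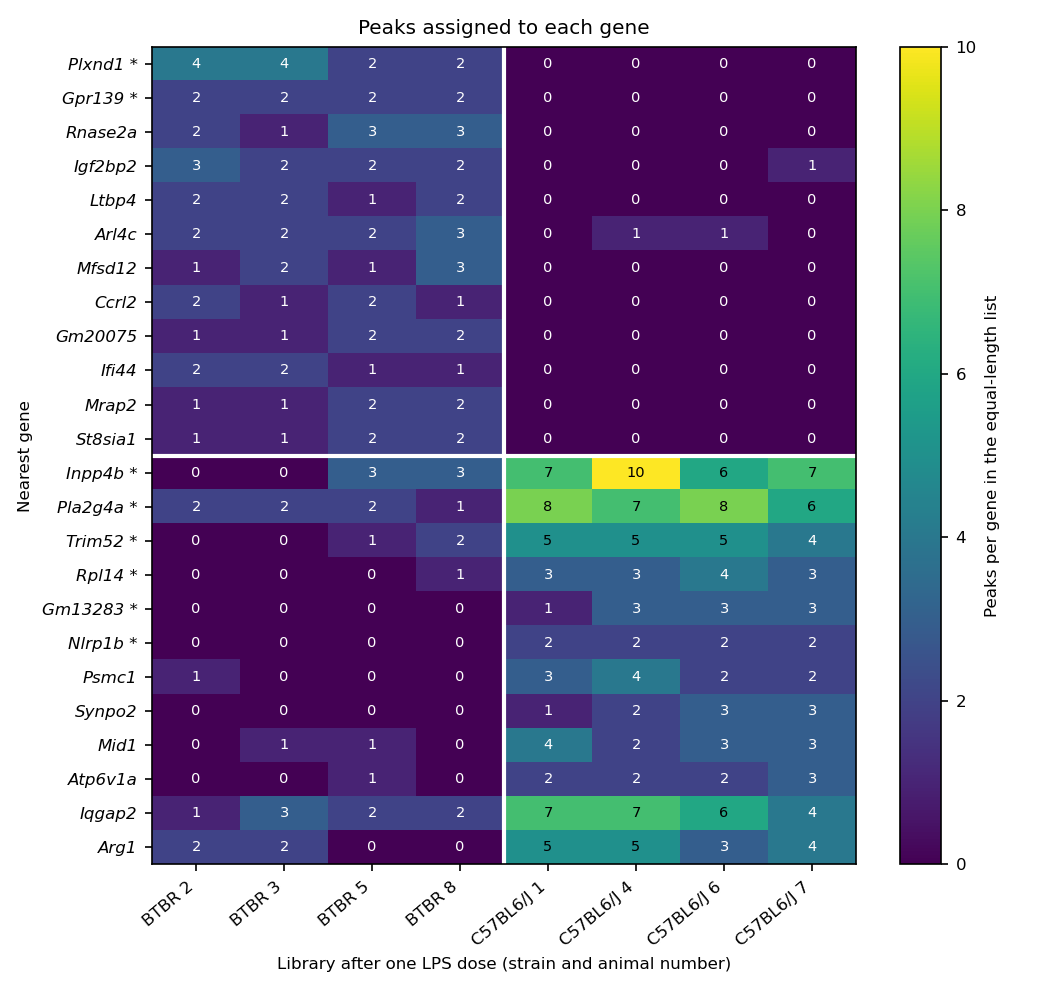
Peaks per gene in each LPSx1 library, BTBR animals left and C57BL6/J animals right, for 12 genes higher (top) and 12 lower (bottom) in BTBR. An asterisk marks the 8 genes that passed; BTBR and C57BL6/J values do not overlap in any row, by the way the others were chosen.

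The other 16 genes named did not pass in the strain-only fit. They were chosen by the smallest p among genes whose values did not overlap. All 16 passed with lane, in a fit of the same counts, which is no separate support. Iqgap2, Gm20075 and Arg1 also passed in the fit of all kept libraries. On the higher side were Rnase2a, Igf2bp2, Ltbp4, Arl4c, Mfsd12, Ccrl2, Gm20075, Ifi44, Mrap2 and St8sia1. Ccrl2, an atypical chemokine receptor, had 2, 1, 2 and 1 peaks in BTBR and 0 in every C57BL6/J list (limma adjusted p = 0.192). Ifi44, an interferon-stimulated gene, had 2, 2, 1 and 1 in BTBR and 0 in C57BL6/J (limma adjusted p = 0.192), and its intronic BTBR-only region, chr3:151739686-151739964, had no peak in any media list of either strain. On the lower side were Psmc1, Synpo2, Mid1, Atp6v1a, Iqgap2 and Arg1. Arg1, the arginase that competes with nitric oxide synthase for arginine, had 2, 2, 0 and 0 in BTBR and 5, 5, 3 and 4 in C57BL6/J (limma adjusted p = 0.0798 with strain alone). It passed in the planned fit (adjusted p = 0.0433), where it was 1 of the 2 called genes that had residual spread, with lane in the shared-spread fit (adjusted p = 2.15e-06) and in the fit of all kept libraries (adjusted p = 0.0322). Iqgap2, a cytoskeletal scaffold with 3 C57BL6/J-only regions, had 1, 3, 2 and 2 in BTBR and 7, 7, 6 and 4 in C57BL6/J (limma adjusted p = 0.0798, and 0.0242 in the fit of all kept libraries). In lists of full length the Iqgap2 and Mid1 differences were 2.00 and 1.5 peaks higher in BTBR.

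Among the gene lists of LPS biology, few members passed in the strain-only limma fit, and more did with lane. The counts of members that passed or were under 0.05 unadjusted are those of the strain-only fit unless lane is named, and stand beside 8 called and 6.13% unadjusted over all 8551 genes. Of 16 LPS sensing genes tested 0 passed, with 2 at an unadjusted p under 0.05 (12.5%) and a median difference of -0.125 peaks, beside 0 over all genes tested. With lane, Tlr4, Irak2 and Irak3 passed (limma adjusted p of 0.0172 to 0.0281). Tlr4, the LPS receptor, had 4, 5, 5 and 2 peaks in BTBR and 6, 7, 8 and 8 in C57BL6/J, values that did not overlap (limma adjusted p = 0.361). Irak2, a kinase downstream of it, had 5, 4, 3 and 2 in BTBR and 2, 2, 1 and 1 in C57BL6/J (limma adjusted p = 0.361). Of 17 NF-kB subunits and inhibitors 0 passed (2 unadjusted, 11.8%, median -0.25), and with lane Tnip3 and Nfkbia did (limma adjusted p = 0.0179 and 0.0424). The lowest p was that of Tnip3, an NF-kB inhibitor, with 3, 5, 2 and 3 in BTBR and 7, 7, 6 and 4 in C57BL6/J (limma adjusted p = 0.364). Of 10 AP-1 factors 0 passed in limma, with lane or without (1 unadjusted, Batf3, 10%, median 0.375).

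Of 13 inflammatory cytokines 0 passed in the shared-spread limma fit, with lane or without (2 unadjusted, 15.4%, median -0.25). The planned fit called Il12b, a subunit of interleukin-12, which had no residual spread there, with 0, 0, 2 and 1 peaks in BTBR and 1, 1, 3 and 2 in C57BL6/J. Il1b, which encodes interleukin-1 beta, had 2, 1, 0 and 0 peaks in BTBR and 13, 7, 1 and 3 in C57BL6/J, so the strains overlap and C57BL6/J animal 1 stands highest (limma adjusted p = 0.725). Csf3, the granulocyte growth factor, had 1, 1, 0 and 0 in BTBR and 3, 2, 1 and 1 in C57BL6/J (limma adjusted p = 0.529). Of 14 chemokines and their receptors 0 passed (2 unadjusted, Ccrl2 and Ccr7, 14.3%, median -0.125), and of 19 interferon-stimulated genes 0 passed (3 unadjusted, Ifi44, Oasl1 and Gbp5, 15.8%, median 0). With lane, Ccrl2, Ifi44 and Oasl1 passed (limma adjusted p = 0.0175 each). Oasl1 had 2, 2, 2 and 0 in BTBR and 0 in C57BL6/J, while Gbp5, a guanylate-binding protein, had 2, 2, 0 and 0 in BTBR and 2, 3, 2 and 2 in C57BL6/J. Of 18 interferon and cytokine receptors 0 passed with lane or without (1 unadjusted, Il17ra, 5.56%, median 0).

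Of 11 inflammasome genes 1 passed, Nlrp1b, with lane and without, and 2 were under 0.05 unadjusted (18.2%, median 0). Of 18 genes of nitric oxide, itaconate and arginine metabolism 0 passed in the strain-only limma fit (5 unadjusted, 27.8%, median -0.25). With lane 4 passed, Arg1, Ptgs2 (limma adjusted p = 0.0307), Odc1 (0.0281) and Hk3 (0.0175). Hk3, a hexokinase, had 4, 4, 0 and 0 in BTBR and 1, 1, 0 and 0 in C57BL6/J, which overlap. Ptgs2, the inducible cyclooxygenase, had 2, 1, 3 and 2 in BTBR and 5, 3, 4 and 4 in C57BL6/J (limma adjusted p = 0.361). Slc7a11, the cystine transporter, had 4, 4, 2 and 3 in BTBR and 5, 6, 6 and 5 in C57BL6/J (limma adjusted p = 0.420). Of 6 alternative activation genes 0 passed in the strain-only fit (1 unadjusted, Arg1, 16.7%, median -0.625), while Arg1 passed in the 3 other fits given above. Of 18 phosphoinositide and calcium signalling genes 1 passed, Inpp4b, with lane and without (5.56% unadjusted, median 0), and Itpr3, the gene named in the strain's full name, had 1, 1, 0 and 0 in BTBR and 1, 1, 0 and 0 in C57BL6/J.

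Of 22 tolerance and feedback regulators 0 passed in the strain-only limma fit, 0 were under 0.05 unadjusted, and the median was -0.125. Irak3 passed with lane (limma adjusted p = 0.0281), and Tet2, a DNA demethylation enzyme, in the fit of all kept libraries (0.0242). Of 9 antigen presentation genes 0 passed with lane or without (1 unadjusted, H2-K1, 11.1%, median 0.5), and the same held for 14 lipid and LXR targets (1 unadjusted, Fasn, 7.14%, median 0.25). Of 17 scavenger and phagocytic receptors 0 passed (4 unadjusted, Cd36 with the smallest p, 23.5%, median -0.25). Fpr1, a formyl peptide receptor of this list, passed with lane (limma adjusted p = 0.00251) and in the fit of all kept libraries (0.0276). Of 12 macrophage identity genes 0 passed (2 unadjusted, 16.7%, median -0.125). Lyz2, lysozyme M, had 3, 3, 0 and 0 in BTBR and 6, 5, 4 and 4 in C57BL6/J (limma adjusted p = 0.199 with strain alone, 2.34e-05 with lane and 0.00322 in the fit of all kept libraries). Dendritic cell markers, 4 of them tested, had 0 that passed with lane or without (2 unadjusted, 50%, median 0.375). Flt3 had the smallest p of these markers, and 3 of the 4 had a higher mean in BTBR and 1 a lower. Whether the cultures differed in their cell types was not tested. Of 14 housekeeping genes 0 passed in limma, with lane or without, and 0 were under 0.05 unadjusted, with a median of 0.

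The share of distal peaks with a C/EBP motif was lower in BTBR in 4 of 4 lanes, but did not pass the adjusted test. A motif that stands apart alone cannot pass that test with 4 libraries of each strain. The C/EBP motif, TTGCNNAA on either strand, lay in 16.1%, 14.5%, 14.7% and 13.7% of distal peaks in BTBR animals 2, 3, 5 and 8, against 18.3%, 17.1%, 18.2% and 17.2% in C57BL6/J animals 1, 4, 6 and 7. The strains did not overlap, and the same direction in 4 of 4 lanes follows from that. The mean was 14.7% ± 1.04 in BTBR and 17.7% ± 0.654 in C57BL6/J (SD, n = 4 each), with a two-sided exact permutation p of 0.0286, the smallest that 4 against 4 allows, and 0.229 adjusted over 12 motifs. At that smallest p, many of the 12 motifs would have to stand apart together for any to pass, so the adjusted test could not decide. Within lanes 1 and 2 the mean difference was -2.38 percentage points, and within lanes 3 and 4 it was -3.50. NF-kB motifs lay in 5.11% ± 0.573 in BTBR and 4.36% ± 0.270 in C57BL6/J (exact permutation p = 0.0571, adjusted 0.229), higher in BTBR in 4 of 4 lanes. PU.1 motifs lay in 12.3% ± 0.860 in BTBR and 13.2% ± 0.406 in C57BL6/J (exact permutation p = 0.0571, adjusted 0.229). AP-1 motifs lay in 33.5% ± 1.68 in BTBR and 34.6% ± 0.826 in C57BL6/J (exact permutation p = 0.286), and ISRE motifs in 8.09% ± 0.527 in BTBR and 8.07% ± 0.464 in C57BL6/J (exact permutation p = 1). The other 7 motifs had an exact permutation p of 0.200 or above. Among the distal strain-specific regions, the C/EBP motif lay in 10 of 94 BTBR-only regions (10.6%) and 40 of 195 C57BL6/J-only regions (20.5%), with 16.4% of all distal regions. The RUNX motif lay in 28.7% of the BTBR-only and 19.0% of the C57BL6/J-only regions, with 22.1% of all. ISRE lay in 11.7% and 6.67%, NF-kB in 7.45% and 4.62%, PU.1 in 9.57% and 14.4%, and AP-1 in 36.2% and 34.9%. The regions come from the same 8 lists, and no test was made of these shares.

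**Figure D3:**
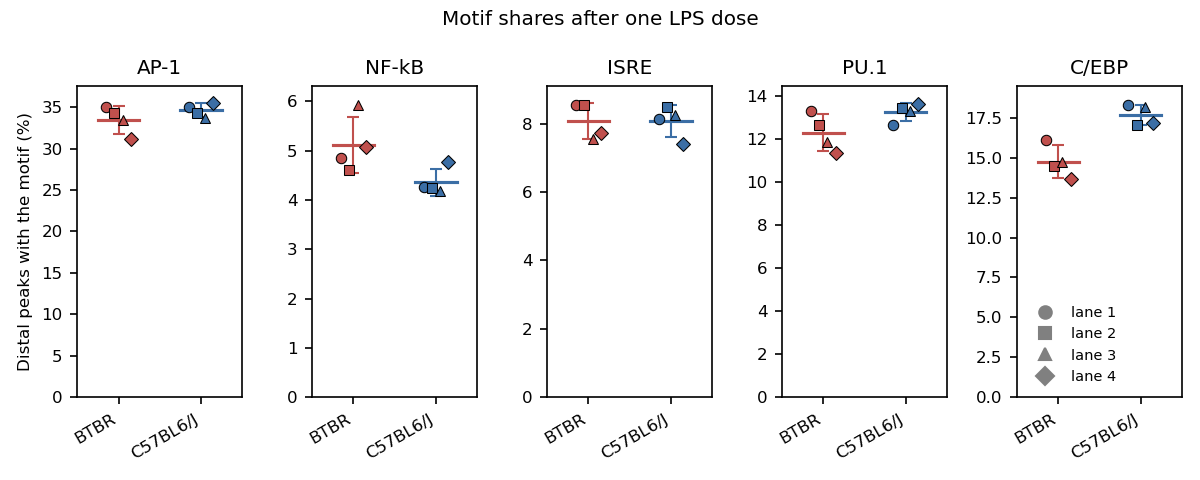
Share of distal LPSx1 peaks (over 1 kb from a TSS) with each of 5 motifs, for BTBR (red) and C57BL6/J (blue), with the lane by symbol, the mean as a bar and the SD as whiskers (n = 4 each). C/EBP shares run from 13.7% to 16.1% in BTBR and from 17.1% to 18.3% in C57BL6/J.

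Promoter shares differed more between lane pairs than between strains. Peaks within 1 kb of a TSS made up 37.7%, 39.8%, 53.2% and 51.8% of the list in BTBR animals 2, 3, 5 and 8, against 35.5%, 38.4%, 45.5% and 49.7% in C57BL6/J animals 1, 4, 6 and 7. Lanes 3 and 4 stood higher in both strains. The strain difference was 3.34 percentage points (two-sided exact permutation p = 0.543, n = 4 each), with BTBR higher in 4 of 4 lanes. By lane it was 2.24, 1.38, 7.69 and 2.03 points in lanes 1, 2, 3 and 4. The permutation took no account of lane, so the spread between lanes entered its p, and no test was made within lanes.

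Whole lists also grouped by lane pair. Pairs of lists shared 64.0% of peaks within BTBR, 69.4% within C57BL6/J and 64.7% between the strains. Pairs within a strain shared 1.95 percentage points more than pairs between strains (exact permutation p = 0.457 over 35 splits, the smallest possible being 0.0286). These splits took no account of lane. Pairs both in lanes 1 and 2 shared 73.8%, pairs both in lanes 3 and 4 shared 69.9%, and pairs across shared 60.8%. Within lanes 1 and 2, pairs of a strain shared 77.3% and pairs between strains 72.1%, a difference of 5.17 percentage points. Within lanes 3 and 4 the values were 73.8% and 67.9%, a difference of 5.93. No test was made within lane pairs. The highest value was 80.3%, between BTBR animals 2 and 3, and the lowest 52.8%, between BTBR animal 8 and C57BL6/J animal 1. The lane pairs differ in PCR cycles and in sequencing lane, and the part of each was not tested.

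**Figure D4:**
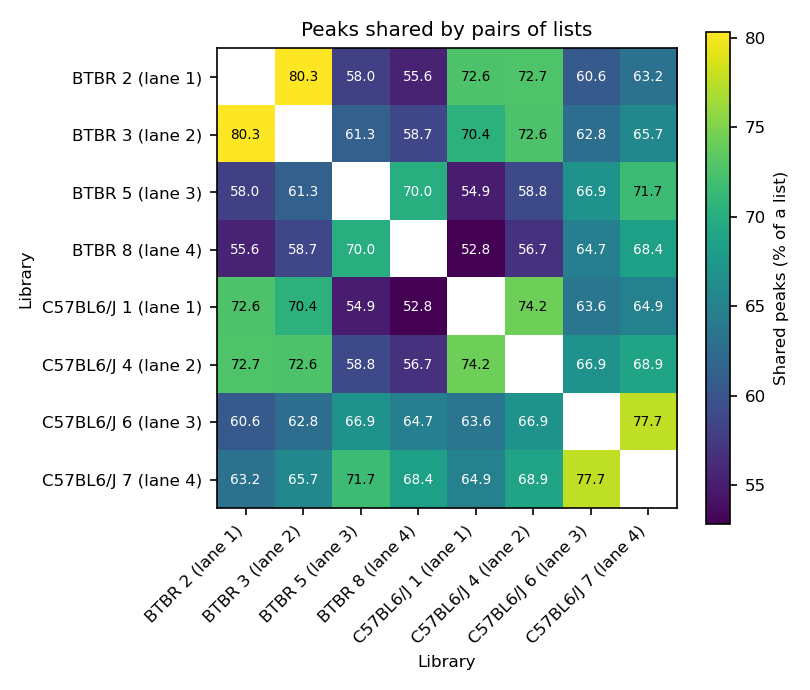
Percent of peaks shared by each pair of LPSx1 lists of equal length, with BTBR animals before C57BL6/J animals and the lane beside each. Values are high within lanes 1 and 2 and within lanes 3 and 4, and range from 52.8% to 80.3%.

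Whether the change from media to LPSx1 differed between the strains was fitted on all 22 kept libraries, cut to 11349 peaks. In the shared-spread limma fit 1 of 7379 genes passed (0.0136%), with 537 at an unadjusted p under 0.05, and the planned fit called 3 (0.0407%). The gene was Tcf25, with an interaction of 2.02 ± 0.31 peaks (limma adjusted p = 0.0241). It had 1 peak in every BTBR list in media and with LPSx1, against 2 in the 3 C57BL6/J media lists and 0 in the 4 LPSx1 lists. With the animal as a replicate block the adjusted p was 0.0534, so the call was lost. The other 2 genes of the planned fit were Esd and Rnf41, with adjusted p of 0.0832 and 0.219 in the shared-spread fit.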

How the data were processed

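The authors deposited a peak list for each library, with position and a peak score of unstated scale, per the labels and from the values. Reads were aligned to mm10, limited to fragments under 147 bp and peaks called with HOMER for each replicate, per the labels' design text. Trimmomatic 0.38, SAMtools 1.8, Picard 2.18.4 and bedtools are named in the submitters' processing notes. The aligner is not given in the sources used here. Peaks were 201 bp wide and scores ran in steps of 0.5, and the score served only to rank peaks within a list.

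Overlapping peaks of a list were merged to the best score and lists cut to 13957 peaks, with ties broken at random under a fixed seed. Each peak went to the nearest TSS of 21911 protein-coding genes (GENCODE vM21) within 100 kb, and genes averaging at least 0.5 peaks over the libraries entered the fits. Regions were unions overlapping by at least 1 bp. Fits used limma 3.58.1 (Benjamini-Hochberg, threshold 0.05). The planned fit had lane and strain. Since whole-number counts left 1893 genes with no residual spread, a shared-spread fit with strain alone was added after the planned results were seen, and gene statements rest on it. The planned fit and the shared-spread fit with and without lane were tested on simulated data. The simulated libraries held no lane effect, so they could not decide between the versions with and without lane. The choice of strain alone gives fewer calls and was made after the results were seen. Genes were named by a rule: up to 12 per direction among those that passed, by size, then by p among genes whose values did not overlap. In each gene list, members that passed were named too, and in most lists the one with the smallest p. Python 3.11.15 with scipy 1.17.1 gave the exact permutation tests. Region rank was the mean percentile of the score. Members and lists were chosen with earlier results of these data known. Samples with different numbers are separate animals, per the labels. Animal numbers pair libraries across treatments, since they mark the same animal, and not across strains. Lists under 5000 peaks were left out. List length limits what a peak's absence means, and no read depth is known. The genome used for alignment is not that of BTBR, and loss of BTBR reads in alignment was not tested.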

Additional observations from a re-analysis of the deposited data

Results flagged for a closer look

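In a group of 4 libraries, values far from the other 3 are listed here, and chance gives about 1 in 20 such groups. In whole-number counts a single step can be enough. In BTBR, Igf2bp2 had 3 peaks in animal 2 against 2 in the others, Ltbp4 1 in animal 5 against 2, Arl4c 3 in animal 8 against 2, and Pla2g4a 1 in animal 8 against 2. Rpl14 had 1 in BTBR animal 8, Psmc1 1 in animal 2 and Atp6v1a 1 in animal 5, against 0 in the others. In C57BL6/J, Igf2bp2 had 1 in animal 7 against 0, Trim52 4 in animal 7 against 5, Rpl14 4 in animal 6 against 3, Gm13283 1 in animal 1 against 3, and Atp6v1a 3 in animal 7 against 2.

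The shares of 2 motifs stood apart in C57BL6/J. The NF-kB share was 4.76% in animal 7, against 4.18% to 4.25% in the others, and the RUNX share was 22.9% in animal 1, against 22.3% in the others. The change of Tcf25 from media to LPSx1 differed between BTBR and C57BL6/J by 2.02 peaks in the interaction term of the shared-spread limma fit (adjusted p = 0.0241), and the call was lost with the animal as a replicate block (adjusted p = 0.0534).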

How the results depend on the processing

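Counts of genes depended strongly on the settings. The planned limma fit called 118 genes, against 76 with no lane covariate, 75 on log2(peaks + 0.5), 44 with all kept libraries, 1205 in lanes 1 and 2 alone, 1274 in lanes 3 and 4 alone and 198 to 246 with a library left out. The shared-spread limma fit called 8, against 175 with lane, 1 with lists cut within each lane, 2 for distal peaks, 15 within 25 kb, 14 with no filter, 3 on log2(peaks + 0.5), 45 with all kept libraries, 26 in lanes 1 and 2, 20 in lanes 3 and 4 and 2 to 8 with a library left out. The lowest, 2, was without BTBR animal 3. With lists not cut, limma called 0 in the planned fit (141 at an unadjusted p under 0.05) and 0 in the shared-spread fit (114 unadjusted), and Mid1 and Iqgap2 turned to 1.5 and 2.00 peaks higher in BTBR. The cause was not tested.

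The interaction count of 3 in the planned limma fit was 10 with the animal as replicate block, 14 with no filter and 5 to 11 with an animal left out. The shared-spread count of 1 was 0 with the block (473 unadjusted), 10 with no filter and 0 to 1 with an animal left out (429 to 523 unadjusted where 0). BTBR-only regions numbered 54 in the stronger 50% of lists, 34 when absent also from uncut lists and 135 to 203 with a library left out. C57BL6/J-only regions numbered 113 in uncut lists, 104 in the stronger 50%, 26 when absent also from uncut lists and 266 to 312 with a library left out. The log2 difference in list length turned to -0.016 as deposited and ran from -0.38 (without BTBR animal 2) to 0.62. The promoter share and list similarity kept their direction and missed the threshold in every setting run. In these settings 0 motifs passed (unadjusted, 1 of 12 in the main setting), which the small number of libraries largely fixed in advance.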

Other observations

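BTBR animals 5 and 8, from lanes 3 and 4, had many peaks at genes where the other LPSx1 libraries had few or none. These genes were picked after their values were seen and carry no test. At Gm21719 on the Y chromosome, BTBR animals 2, 3, 5 and 8 had 0, 0, 14 and 11 peaks, against 0 in every C57BL6/J list. At Zfp992, a zinc finger gene on chromosome 4, they had 0, 0, 7 and 7, against 0 in every C57BL6/J list, and at Zfp982 0, 0, 6 and 8, against 0, 0, 1 and 0 in C57BL6/J animals 1, 4, 6 and 7. In the other treatments of these animals, in lists cut to 11349 peaks, the split was kept in part. With LPSx2, BTBR animals 2, 3, 5 and 8 had 0, 0, 17 and 4 peaks at Gm21719 and 0, 0, 12 and 4 at Zfp982. At Zfp992 they had 0, 1, 8 and 0. In media they had 0, 0, 1 and 0 at both Gm21719 and Zfp982, and 0, 0, 1 and 1 at Zfp992. Sp110, an interferon-inducible nuclear body gene, had the same split within BTBR, with 0, 0, 8 and 7 peaks, against 2, 4, 3 and 7 in C57BL6/J. In these BTBR animals Sp110 had 0, 2, 8 and 5 with LPSx2 and 0, 0, 4 and 1 in media.

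Other genes moved with the lane pair in both strains. Siglec1, a macrophage sialic acid receptor, had 4, 4, 0 and 0 peaks in BTBR and 3, 4, 0 and 0 in C57BL6/J. Tlr1, which pairs with Tlr2 to sense lipoproteins, had 3, 3, 0 and 0 in BTBR and 3, 4, 0 and 0 in C57BL6/J. Spi1, which encodes PU.1, had 5, 5, 1 and 2 in BTBR and 4, 4, 0 and 0 in C57BL6/J.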
